A study of Mus musculus with 2 samples.

Results

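The 10 Notch pathway genes examined here are the receptor genes Notch1, Notch2, Notch3 and Notch4, the ligand genes Jag1, Jag2 and Dll1, the gene of the DNA-binding factor Rbpj, and the target genes Hes1 and Hey1. They were taken by name from the 21911 protein-coding genes of the GENCODE M21 mouse annotation, and all 10 were found there. To each gene were assigned the EP300 summits that lay in its gene body or within 50 kb of its start, where a summit is the position of highest signal in a peak. Of 7733 peaks, 26 were assigned in this way. EP300 was mapped by chromatin immunoprecipitation and sequencing (ChIP-seq) in whole stomach of newborn B6NCrl mice at postnatal day 0, in 2 libraries that form 1 group, with no other tissue, age, genotype or treatment. The libraries are numbered as biological replicates, but they carry 1 biosample and 1 donor label between them, so the spread from library to library need not include differences between animals. The deposited files are peak lists with a signal value per peak and hold no read counts, from which it follows that sequencing depth is not known. The main list is the optimal set, the peaks that the authors retained by the irreproducible discovery rate (IDR), and the stricter conservative IDR set and the lists of replicate 1, replicate 2 and the pooled reads were used beside it.

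Notch receptors are cell-surface proteins that are cleaved after contact with a Jagged or Delta-like ligand on a neighbouring cell. The released intracellular domain enters the nucleus, binds RBPJ on DNA together with a Mastermind-like protein, and the complex recruits the histone acetyltransferase EP300 to activate targets such as the HES and HEY repressors. In the stomach this pathway is known for its part in progenitor maintenance and in the choice of epithelial cell fate, and in vessels and smooth muscle for Jag1 and Notch3 signalling. A ChIP-seq peak of EP300 marks where the protein was crosslinked in some cells of the tissue, and its position alone does not say which gene it acts on or whether the Notch complex brought it there. In whole tissue, fewer cells of a type and less EP300 per cell cannot be told apart.

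For 6 genes the strongest peak away from UTR exons is given as the 201 bases centred on its summit (mm10), because these are the stretches on which the values rest. Capitals mark every match, on either strand, to 1 of 12 short motifs searched. Among them are AP-1 (TGANTCA), the KLF and SP box (GGGCGG), the E-box CAGCTG, the RBPJ core (TGGGAA) and a longer RBPJ motif (GTGGGAA), which contains the core.
Notch1 (intergenic, upstream, chr2:26554068-26554268, + strand): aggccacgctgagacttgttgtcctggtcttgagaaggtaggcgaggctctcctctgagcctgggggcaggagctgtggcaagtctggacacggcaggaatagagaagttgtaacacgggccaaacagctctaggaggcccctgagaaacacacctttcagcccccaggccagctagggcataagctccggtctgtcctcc
Notch2 (intron 4, chr3:98080744-98080944, + strand): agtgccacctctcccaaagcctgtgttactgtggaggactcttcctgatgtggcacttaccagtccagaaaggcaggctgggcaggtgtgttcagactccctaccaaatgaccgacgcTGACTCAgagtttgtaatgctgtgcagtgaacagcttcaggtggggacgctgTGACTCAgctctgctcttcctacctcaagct
Notch3 (intron 2, chr17:32162334-32162534, + strand): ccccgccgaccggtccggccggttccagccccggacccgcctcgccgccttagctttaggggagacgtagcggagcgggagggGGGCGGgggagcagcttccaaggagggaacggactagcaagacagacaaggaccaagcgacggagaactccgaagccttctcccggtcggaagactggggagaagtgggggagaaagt
Notch4 (intergenic, downstream, chr17:34603740-34603940, + strand): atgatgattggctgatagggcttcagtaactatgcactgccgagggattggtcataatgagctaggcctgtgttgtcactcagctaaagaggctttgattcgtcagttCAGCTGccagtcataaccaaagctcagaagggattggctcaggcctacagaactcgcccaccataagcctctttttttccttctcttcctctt
Jag1 (intron 5, chr2:137098374-137098574, + strand): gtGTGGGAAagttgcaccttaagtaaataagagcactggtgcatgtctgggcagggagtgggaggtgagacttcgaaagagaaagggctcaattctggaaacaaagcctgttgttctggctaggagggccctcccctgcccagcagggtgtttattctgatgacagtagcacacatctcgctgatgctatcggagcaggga
Rbpj (intronic, upstream of the coding transcripts, chr5:53589223-53589423, + strand): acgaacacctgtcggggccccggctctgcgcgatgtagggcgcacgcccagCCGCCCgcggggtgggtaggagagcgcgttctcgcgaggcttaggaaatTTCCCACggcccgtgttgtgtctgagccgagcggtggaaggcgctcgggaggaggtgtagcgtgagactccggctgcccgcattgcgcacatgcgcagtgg
The Jag1 and Rbpj stretches hold the longer RBPJ motif, near the left edge in Jag1 and 3 bp from the summit in Rbpj. Notch2 holds a pair of AP-1 matches, Notch3 holds a KLF and SP box, Notch4 holds an E-box, and Notch1 holds no match to any of the 12 motifs.

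At least 1 optimal EP300 summit was assigned to 7 of the 10 genes, namely all 4 receptors, Jag1, Hes1 and Rbpj. Among all protein-coding genes the share with such a summit was 36.7%. Jag2, Dll1 and Hey1 had none. When distance from the start alone was used and the gene body was left out, 6 of the 10 genes had a summit, against 34.9% of all protein-coding genes, and the gene lost was Rbpj. The 26 peaks formed 17 separate regions, where overlapping peaks are counted as 1 region. Of the summits, 15 lay in introns, 7 were intergenic, 3 lay in UTR exons and 1 in a coding exon. The coding exon and 1 of the introns belong to the neighbouring gene Ephx3, and 1 UTR exon belongs to Agpat1. Intron here means any part of a protein-coding gene record outside the exons of coding transcripts. It thus takes in promoter-near summits 206 bp (Hes1) and 692 and 891 bp (Rbpj) upstream of a coding-transcript start. The intergenic summits likewise include promoter-near ones, 273 bp upstream of the Jag1 start and 150 bp from the start of Rnf5.

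**Figure D1:**
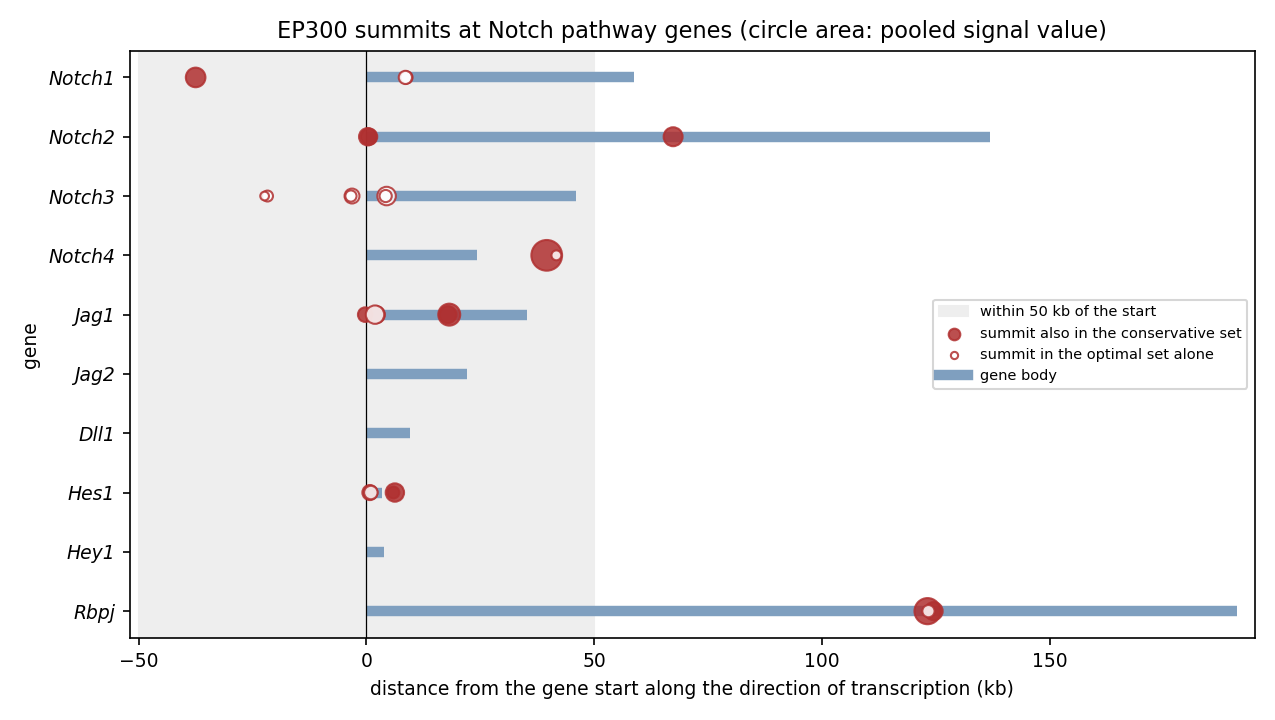
Position of each optimal EP300 summit along the 10 Notch pathway genes, with the distance from the gene start in kb on the horizontal axis and 1 gene per row. Circle area stands for the pooled signal value, filled circles have the same summit in the conservative set, and blue bars are gene bodies; Jag2, Dll1 and Hey1 have no circle, and the 3 summits of Rbpj lie 123.2 to 124.5 kb into the gene record.

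By number of summits the order was Notch3 with 6, Jag1 with 5, Hes1 with 4, Notch1, Notch2 and Rbpj with 3 each, and Notch4 with 2. The place of Notch3 did not hold in either library alone, where its count was 2 without replicate 2 and 1 without replicate 1. It was also 1 in the stronger part of the optimal set and among the strongest pooled peaks. At least 6 summits were assigned to 1.69% of all protein-coding genes, and at least 5 to 3.22%. The share was 5.86% for at least 4, 10.5% for at least 3 and 20.5% for at least 2. The order by support was different, since Jag1 kept 4 of its summits in the conservative set and Notch3 kept 0.

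Notch1 is the receptor with a broad role in fate choice (chr2:26457903-26516663, minus strand). Its strongest peak (chr2:26553888-26554447) was intergenic, 37505 bp upstream of the gene start, with a pooled signal of 40.2. It had a signal of 22.0 in replicate 1 and 19.0 in replicate 2, and the same summit stood in the conservative set. The nearest protein-coding start was that of Egfl7, an endothelial secreted protein, at 25846 bp. Notch1 has 2 coding-transcript starts, an outer one at the gene start and an inner one at position 26503822. From the inner start this distal peak lies beyond 50 kb, so its assignment rested on the outer start. The other 2 Notch1 summits formed 1 intronic region of the gene record (chr2:26507634-26508405), with pooled signals of 18.3 and 16.3. These summits lay 8537 and 8749 bp downstream of the gene start, but 4304 and 4092 bp upstream of the inner coding-transcript start. Both matched the same replicate 2 peak with a signal of 16.8, neither held a replicate 1 summit, and neither stood in the conservative set. Thus the intronic region rested on 1 library, and the distal peak was present in both. The gene's own promoters, within 1 kb of its coding-transcript starts, had no optimal summit, and the strongest peaks there, at differing positions, had signals of 16.8 in the pooled list, 14.9 in replicate 1 and 10.5 in replicate 2.

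Notch2, a second receptor of broad expression (chr3:98013527-98150361, plus strand), had all 3 of its summits in the conservative set. A promoter region in intron 1 (chr3:98013521-98014375) held summits 274 and 569 bp downstream of the gene start, with pooled signals of 31.8 and 28.0. The summit at 274 bp had a replicate 1 signal of 23.5 and no replicate 2 summit inside the peak, although a replicate 2 peak with a signal of 20.8 touched it. The summit at 569 bp had a signal of 14.9 in replicate 1 and 20.8 in replicate 2. Taken as a region, the Notch2 promoter was thus marked in both libraries. The remaining Notch2 peak lay in intron 4 of 33 (chr3:98080564-98081123), 67317 bp into the gene, with a pooled signal of 37.7. Replicate 1 gave it 25.2 and replicate 2 gave it 10.9. A further intronic peak at 85295 bp, with a signal of 30.8, stood in the conservative set but not in the optimal one. It had 18.7 in replicate 1 and 13.5 in replicate 2, and its nearest protein-coding start was that of Adam30.

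Notch3, the receptor best known from vascular smooth muscle and pericytes (chr17:32120820-32166852, minus strand), had the most summits and none of them in the conservative set. Its strongest peak (chr17:32162154-32162713, intron 2 of 32) lay 4418 bp into the gene with a pooled signal of 35.8. In replicate 1 it had a signal of 28.8, rank 937 of that list, but no replicate 2 summit lay inside it and the strongest replicate 2 peak touching it had a signal of 6.24. The overlapping peak at 4213 bp had a pooled signal of 15.6 and a replicate 1 signal of 24.6, and again no replicate 2 summit. Signal in intron 2 was therefore high in replicate 1 and low in replicate 2. Upstream, a region 3176 to 3410 bp before the gene start (chr17:32169748-32170541) showed the reverse, with pooled signals of 23.2 and 13.1. Both of its summits matched the same peaks, with a signal of 7.76 in replicate 1 and 14.9 in replicate 2. The remaining 2 Notch3 summits, 21727 and 22362 bp upstream with pooled signals of 12.6 and 7.93, lay in an intron and a coding exon of Ephx3, an epoxide hydrolase gene, 970 and 335 bp from its start. All 6 Notch3 summits were also within reach of Ephx3 under the same rule. A summit of both libraries lay inside 3 of the 6 Notch3 peaks, with matches low in at least 1 list. The pair 3176 and 3410 bp upstream shared its matches, of which that in replicate 1 had rank 62168. The peak in the Ephx3 coding exon had 5.97 in replicate 1, rank 159801, and 6.48 in replicate 2, rank 103389.

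Notch4, a receptor known from endothelium (chr17:34564268-34588503, plus strand), received the strongest peak assigned to any of the 10 genes, but not from its own promoter. This peak (chr17:34603560-34604119) had a pooled signal of 98.7, rank 212 of the optimal set, with 34.7 in replicate 1 and 52.7 in replicate 2. It lay 39572 bp downstream of the Notch4 start and 150 bp from the start of Rnf5, a ubiquitin ligase gene. The other summit, 41689 bp downstream with a pooled signal of 10.2, lay in a UTR exon of the acyltransferase gene Agpat1, and had a signal of 6.60 in replicate 1 and 10.7 in replicate 2. Both summits also fell to 10 neighbouring protein-coding genes, among them Ager, Pbx2 and Atf6b, so they are shared by a gene-dense stretch. Within 1 kb of the Notch4 coding start no list held a peak. A peak inside the gene, 22813 bp from its start in an intron, stood in the conservative set but not in the optimal one. It had a signal of 30.0, 15.3 in replicate 1 and 17.0 in replicate 2, and its nearest protein-coding start was that of Gpsm3.

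**Figure D2:**
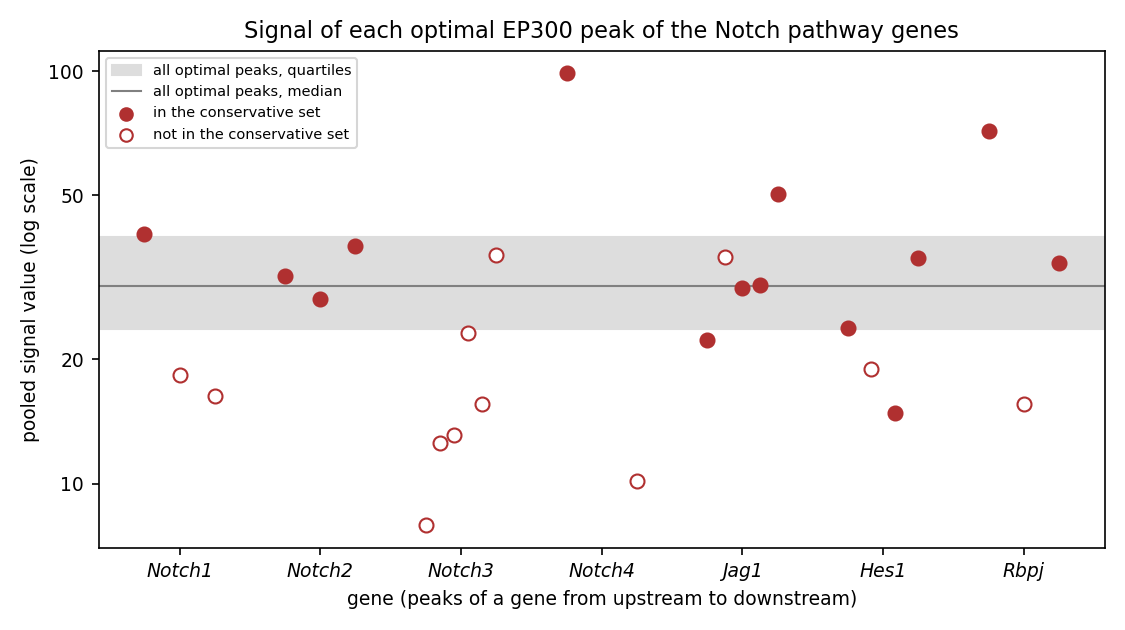
Pooled signal value (log scale) of each of the 26 optimal peaks of the Notch pathway genes, with the peaks of a gene ordered from upstream to downstream and the genes Notch1 to Notch4, Jag1, Hes1 and Rbpj along the horizontal axis. The grey band spans the quartiles of all 7733 optimal peaks (23.7 to 39.7) around their median of 30.2; the Notch4 peak at 98.7 and the Rbpj peak at 71.6 stand above it, and all 6 Notch3 peaks are hollow, outside the conservative set.

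Among the ligands, Jag1, which signals to Notch3 in vessel walls (chr2:137081456-137116644, minus strand), had summits in 3 regions, each nearest to its own start. The strongest was in intron 5 of 25 (chr2:137098194-137098753), 18170 bp into the gene, with a pooled signal of 50.4, 17.9 in replicate 1 and 29.8 in replicate 2. The overlapping peak at 17880 bp had a pooled signal of 30.3, with 17.9 in replicate 1 and 12.7 in replicate 2. In intron 2 a region (chr2:137114170-137115051) held summits at 1872 and 2194 bp with pooled signals of 35.5 and 29.8. The summit at 1872 bp had 7.89 in replicate 1 and 24.8 in replicate 2, and that at 2194 bp had 20.3 in replicate 1 and no replicate 2 summit, although the replicate 2 peak of 24.8 touched it. The 2 libraries thus had their stronger summits at different ends of this region. The promoter peak (chr2:137116637-137117196), 273 bp upstream of the start, was weaker, with a pooled signal of 22.3. It had a signal of 14.7 in replicate 1, rank 7201 of that list, and 14.8 in replicate 2, rank 5820. Of the 5 Jag1 summits, 4 stood in the conservative set and 4 held a summit of both libraries.

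Jag2, the second Jagged ligand (chr12:112907819-112929776, minus strand), had no optimal or conservative peak. The strongest pooled peak in reach, 35332 bp downstream of the start, had a signal of 15.6, rank 25610, with 11.4 in replicate 1 and 7.48 in replicate 2. At its promoters only replicate 1 had a peak, with a signal of 5.26, and the nearest optimal summit was 106752 bp away.

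Dll1, a Delta-like ligand (chr17:15367354-15376872, minus strand), had no optimal summit in reach, and the nearest was 123206 bp away. The conservative set did list a promoter peak (chr17:15377072-15377631), 480 bp upstream of its start, with a signal of 18.9, 12.8 in replicate 1 and 12.3 in replicate 2. Its strongest pooled peak lay 3882 bp upstream with a signal of 19.9, rank 12576. Dll1 therefore had no summit in the optimal set but had 1 in the conservative set, which is not contained in the optimal one.

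Rbpj, the DNA-binding partner of the Notch intracellular domain (chr5:53466152-53657362, plus strand), had its summits around internal coding-transcript starts, far from the start of the gene record. The strongest peak (chr5:53589043-53589602) had a pooled signal of 71.6, rank 405 of the optimal set, with 31.6 in replicate 1 and 36.5 in replicate 2. Its summit lay 123171 bp into the gene record and 891 bp upstream of a coding-transcript start. A shoulder peak 199 bp further on had a pooled signal of 15.6 and matched the same peaks of both libraries. The remaining peak (chr5:53590379-53590938) lay in a UTR exon, 188 bp downstream of a coding-transcript start, with a pooled signal of 34.2, 16.1 in replicate 1 and 16.8 in replicate 2. All 3 summits had a matching summit in each library, and 2 stood in the conservative set. Measured from gene records, the nearest start was that of Cckar, a cholecystokinin receptor gene, at 118382 bp for the strongest summit.

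Among the targets, Hes1, a repressor that is a direct target of RBPJ (chr16:30064384-30067796, plus strand), had a promoter region and a downstream region. The promoter region (chr16:30064854-30065623) held a summit 206 bp upstream of the coding-transcript start, with a pooled signal of 23.9, 11.0 in replicate 1 and 17.5 in replicate 2. Its other summit, 4 bp downstream of that start, had a pooled signal of 18.9, 9.98 in replicate 1 and 17.5 in replicate 2. The downstream region was stronger, with a summit 6236 bp from the gene start at a pooled signal of 35.3, 18.8 in replicate 1 and 19.0 in replicate 2. The summit at 5909 bp in the same region had a signal of 14.8 and held no summit of either library, although it stood in the conservative set. A further peak 65 bp upstream of the gene start was strong in replicate 1, with a signal of 24.3, rank 1594. It was weak in replicate 2, with 7.18, rank 71913, and had 19.9 in the pooled list, rank 12584. The conservative set added peaks 4724 and 29566 bp upstream, with signals of 30.7 and 24.3.

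Beyond 50 kb, Hes1 was the nearest protein-coding start for 8 more summits, between 55.3 and 160.6 kb upstream, of which 5 stood in the conservative set. The strongest of these (chr16:29945632-29946191), 118.5 kb upstream, had a pooled signal of 51.7, 29.9 in replicate 1 and 20.8 in replicate 2, and an overlapping peak had a pooled signal of 41.9. With nearest-start assignment Hes1 thus had 12 summits in 8 regions. At least 12 were assigned to 13 protein-coding genes, or 0.0593% of them, Hes1 included. By construction such a count grows with the empty interval around a gene. The starts flanking Hes1 are 688 kb apart, and 7.92% of protein-coding genes have a wider interval. Jag1, with 1365 kb between its flanking starts, had 5 summits by the same assignment, Notch3 had 4, Notch2 had 3, Notch1 had 2 and the other 5 genes had 0. The 0 of Rbpj rests on the use of gene-record starts. Its summits lay 188, 692 and 891 bp from coding-transcript starts of Rbpj itself, the nearest such starts of any gene.

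Hey1, a repressor related to the HES proteins (chr3:8663359-8667256, minus strand), was the emptiest of the 10 gene neighbourhoods, with the nearest optimal summit 988226 bp away. The strongest pooled peak in reach had a signal of 11.5, rank 76414. Replicate 1 listed a promoter peak 188 bp upstream with a signal of 14.7, rank 7178, and no peak of replicate 2 lay within 1 kb of the coding start. Hey1 thus differed from Hes1, whose promoter carried a peak in both libraries.

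Within 1 kb of a coding-transcript start, 4 of the 10 genes had an optimal summit (Notch2, Jag1, Rbpj and Hes1), against 11.2% of protein-coding genes. The strongest promoter signal was that of Rbpj at 71.6, followed by Notch2 at 31.8, Hes1 at 23.9 and Jag1 at 22.3. Of the other 6 genes, Notch1, Notch3 and Dll1 had promoter peaks in the pooled list, with signals of 16.8, 17.2 and 18.9, that are not in the optimal set. Jag2, Hey1 and Notch4 had no pooled promoter peak.

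Taken over all 26 peaks, the median pooled signal was 25.9 (quartiles 15.8 and 35.4, range 7.93 to 98.7), against 30.2 over all optimal peaks (quartiles 23.7 and 39.7). In the lists of the libraries the medians of the matched peaks were close to those of all peaks. The Notch pathway peaks had a median of 17.9 in replicate 1 and 16.8 in replicate 2, and all optimal peaks had 17.4 and 16.9. These medians leave out peaks without a match. In replicate 1 and replicate 2, 22 and 21 of the 26 peaks were matched, against 7224 and 7322 of all 7733. The same summit stood in the conservative set for 14 of the 26 peaks, or 53.8%, against 61.3% of all optimal peaks. A summit of both libraries lay inside 18 of the 26, or 69.2%, against 88.8% of all optimal peaks. Of the other 8, 4 matched replicate 1 alone, 3 matched replicate 2 alone and 1 matched neither. When any overlap was enough, both libraries had a peak at 23 of the 26, or 88.5%, against 96.2% of all optimal peaks. The 3 without it were the pair of intronic Notch1 peaks and the Notch3 peak in the Ephx3 intron.

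**Figure D3:**
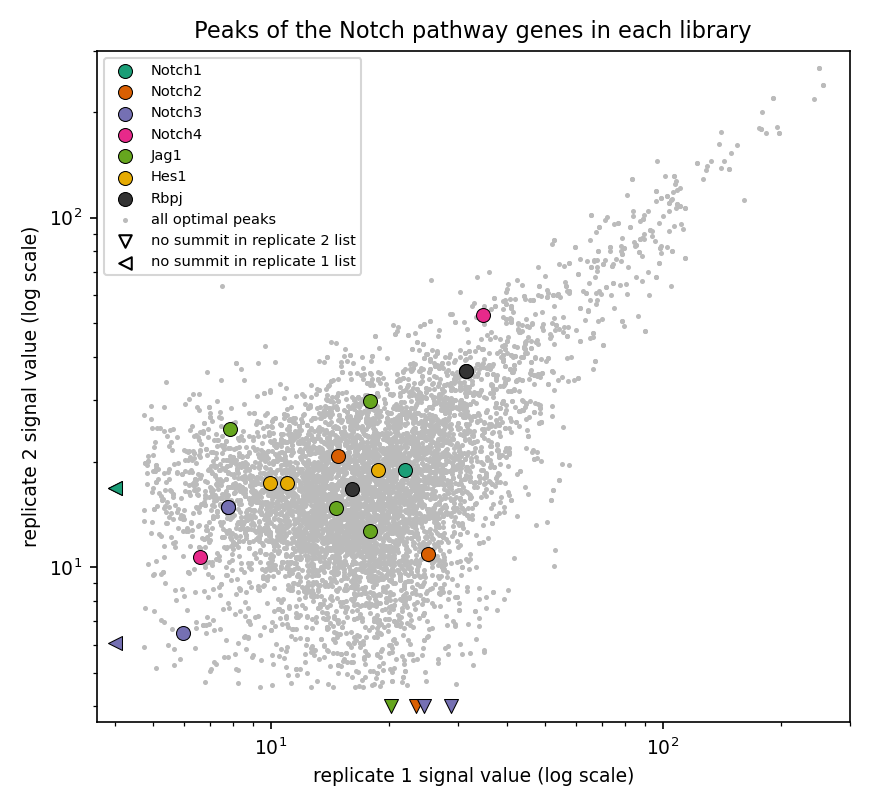
Signal value of the optimal peaks of the Notch pathway genes in replicate 1 (horizontal, log scale) and replicate 2 (vertical, log scale), coloured by gene, over all optimal peaks in grey; triangles on an axis have no summit in the other library's list, some points coincide because overlapping peaks match the same peak, and the Hes1 peak matched in neither list is not drawn. The strongest Notch4 peak (34.7 and 52.7) and the strongest Rbpj peak (31.6 and 36.5) are high in both libraries, while the intron 2 peaks of Notch3 are triangles at 24.6 and 28.8 in replicate 1.

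Across the 18 peaks matched in both libraries, Pearson's r of the log2 signals was 0.66 and Spearman's rho 0.62, against 0.52 and 0.37 across 6865 optimal peaks. These are descriptions across peaks, which share libraries and, for overlapping peaks, the same matched peak.

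The peaks were more often stacked than the optimal set as a whole. An overlap with another optimal peak was found for 18 of the 26 peaks, or 69.2%, against 41.0% of all optimal peaks, and 9 of the 17 regions, or 52.9%, held several peaks, against 24.9% of all 6079 regions. Summits within a region were 199 to 327 bp apart, with a median of 234 bp, against 217 bp over all regions. The ratio of the stronger to the weaker peak in such a region was lowest in the Notch1 intron at 1.13 and highest at Rbpj at 4.58. The sequence around the summits was rich in G and C, with a median of 60.4% over the 201 bases (range 42.3% to 76.6%), against 50.7% over all optimal summits. No test was made of these differences.

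The RBPJ core TGGGAA, on either strand within 100 bp of the summit, was found at 10 of the 26 summits, or 38.5%, in 8 regions, against 19.6% of all optimal summits. In windows of the same width centred 1000 bp to the left and to the right of these 26 summits it was found at 7 and 9, so the core was nearly as common away from the summits as at them. Of the 10, 3 belonged to Rbpj, 2 each to Notch1 and Jag1, and 1 each to Notch3, Notch4 and Hes1. The longer GTGGGAA was found at 5 of the 26, or 19.2%, in 5 regions, against 4.86% of all optimal summits. Its matches fell 1 each to Notch1, Notch4, Jag1, Hes1 and Rbpj. No count in the flanking windows is given for the longer motif, so its share is not shown to be particular to the summits. All but the Hes1 match are printed with 10 bases on either side and written along the strand of the motif, because RBPJ is the factor through which Notch complexes bind DNA. Capitals mark the 7 bases of the longer motif.
Notch1 (chr2:26508034-26508060, - strand): ccgtggcgggGTGGGAAgggtgggagg
Notch4 (chr17:34605999-34606025, - strand): ggtggtgggaGTGGGAAgctgggccca
Jag1 (chr2:137098366-137098392, + strand): caaatggcgtGTGGGAAagttgcacct
Rbpj (chr5:53589313-53589339, - strand): aacacgggccGTGGGAAatttcctaag
The Notch1 match lay 79 bp from its intronic summit and 4222 bp upstream of the inner Notch1 coding-transcript start. The Notch4 match lay 55 bp from the summit in the Agpat1 UTR exon. The Jag1 match lay 95 bp from the summit in intron 5, and the Rbpj match 3 bp from the summit. The Hes1 match lay 81 bp upstream of the coding-transcript start. A match says only that these letters are present, and the part of base composition in these shares was not tested.

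Of the other motifs, the KLF and SP box GGGCGG was found at 9 of the 26 summits, or 34.6%, against 20.8% of all optimal summits. The E-box CAGCTG was at 5 summits, or 19.2%, against 12.5%. The HES and HEY box CACGCG was at 3 summits, or 11.5%, against 4.51%, and CACGTG was at 0, against 4.44%. AP-1 matches were at 4 summits, or 15.4%, against 12.7%, in the Notch2 intron 4 peak and at Notch3. TEAD (GGAATG) and RUNX (TGTGGT) matches were at 2 summits each, or 7.69%, against 14.2% and 10.9%. An ETS match (CCGGAAG) was at 1 summit, or 3.85%, against 6.00%. The FOX letters TGTTTAC were at 0 summits, against 4.81%, and so were the letters AGATAA, bound by GATA factors, against 8.11%.

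Among 54 further genes of the pathway, 29 had a summit under the same rule, beside the share of 36.7% over all protein-coding genes. By role, a summit was assigned to 6 of 7 genes of the gamma-secretase complex, which releases the intracellular domain, and to 4 of 6 co-repressors. Of the gamma-secretase genes, Aph1b and Aph1c shared a summit, with a signal of 33.1, and the strongest summits of Aph1a and Psenen lay 71 bp from a start of Anp32e and 396 bp from a start of Kmt2b. A summit was also assigned to 2 of 3 inhibitors of the pathway, 3 of 5 glycosyltransferases, 4 of 8 co-activators, 3 of 7 HES and HEY effectors, 2 of 5 ligands, 4 of 10 ubiquitin ligases, and Rbpjl, the 1 paralogue of Rbpj. The 2 sheddase genes, Adam10 and Adam17, had 0.

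Among the genes with the most summits were Hes7 with 13, Spen with 6, and Hes6 and Ctbp2 with 5 each. For Hes7, an oscillating repressor of somite formation, the strongest summit (signal 176.9, 84.8 in replicate 1 and 82.9 in replicate 2) lay 1863 bp from a coding-transcript start of the clock gene Per1. For Hes6, an antagonist of Hes1, the strongest summit (signal 53.1) lay 22456 bp from the start of the Hes6 gene record and 22830 bp from a coding-transcript start of Per2, another clock gene. Among the co-repressors, the strongest summits of Spen (39.6), which binds RBPJ in its repressive complex, and of Ctbp2 (46.9) had a coding-transcript start of their own gene as the nearest. When each summit was given to the nearest start only, 15 of the 54 genes had one, against 19.37% of all protein-coding genes by that rule. Further genes were chosen after their values were seen. Nrarp, a Notch target that limits signalling, had 4 summits with a strongest signal of 47.9. Maml1, a Mastermind-like co-activator, had 3, the strongest (54.7) nearest to Canx. Lfng, the glycosyltransferase that tunes ligand choice, had 1 intronic summit with a signal of 25.8. Ep300 itself had 2, the strongest 324 bp upstream of its own start with a signal of 41.0 and 30.4 in replicate 2, and no summit of replicate 1 inside it.

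**Figure D4:**
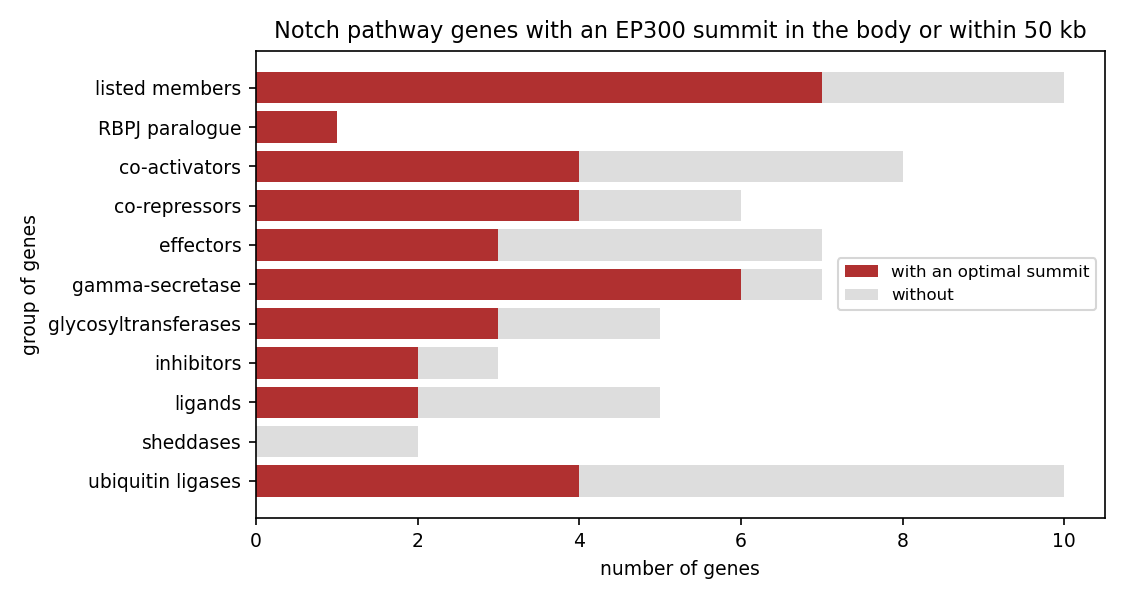
Number of Notch pathway genes with (red) and without (grey) an optimal EP300 summit in the gene body or within 50 kb of the start, for the 10 genes described here (top) and 10 groups of 54 further pathway genes. The top bar holds 7 of 10, gamma-secretase holds 6 of 7 and the sheddases 0 of 2, beside 36.7% of all protein-coding genes.

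As a check of the tissue, beside the share of 36.7% over all protein-coding genes, summits were assigned to 5 of 5 smooth muscle markers, 3 of 4 markers of the squamous forestomach, 2 of 6 of gastric epithelium (Gkn1 and Gkn2) and 1 of 4 of endothelium (Pecam1), and to 0 of 3 liver and 0 of 3 forebrain markers.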

How the data were processed

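EP300 ChIP-seq of newborn mouse stomach was analysed from 5 deposited peak lists on mm10 (replicate 1, replicate 2, pooled, optimal IDR and conservative IDR). Peak strength is the deposited signal value, not comparable in scale from list to list, and the IDR sets also carry a deposited score of up to 1000. The authors' summit is an offset from the peak start. No aligner or peak caller is named here, as these are not given in the sources. The replicate and pooled lists each end at 300000 peaks, which leaves depth unknown.

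Summits were assigned to genes with Python 3.11.15, pandas 2.3.3 and numpy 2.4.6, using GENCODE M21 gene records, and sequence was read with pyfaidx 0.9.0.4. Of 7737 optimal peaks, 4 off the named chromosomes were left out. A library matched an optimal peak where a summit of its list lay inside it, and the strongest such peak was taken. Conservative support meant the same summit position. Coordinates are 1-based. The assignment was tested on simulated data. No p-values were computed, since there is 1 group. The members and lists were chosen with earlier results of these data known. All 10 genes are named, with those among the 5 other pathway genes with the most summits that are reported here and the nearest gene of summits; any others were named after their values were seen. A gene and a sequence covered by this rule are not reported here. Promoter counts used the 21829 genes with a coding transcript start. Alternatives were other peak sets, single libraries, distances, assignment rules and motif windows.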

Additional observations from a re-analysis of the deposited data

How the results depend on the processing

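The number of Notch pathway genes with a summit was 5 to 8 of 10 over the alternatives run, with 7 as reported. The conservative set gave 7 with Dll1 in and Notch3 out, and replicate 1 alone gave 8 with Hey1 added. The nearest gene-record start gave 5 without Notch4 and Rbpj, although the Rbpj summits were nearest to coding-transcript starts of Rbpj itself. The 26 summits became 11 in the stronger part of the optimal set, 17 among the strongest pooled peaks and 16 with the gene body alone. The share of all protein-coding genes with a summit became 20.06% within 10 kb or the body, 12.06% with the body alone and 19.37% by nearest start, and the other pathway genes with a summit became 16 within 10 kb, 18 within 25 kb, 9 with the body alone and 15 by nearest start. The median signal of the Notch pathway peaks divided by that of all peaks was 0.8588. It became 0.9269 within 10 kb, 0.7907 within 25 kb, 0.9343 within 100 kb, 0.7805 within 50 kb without the body, 0.9961 with the body alone and 0.9343 by nearest start, and it was 1.029 without replicate 2 and 0.9979 without replicate 1. Summits with an RBPJ core numbered 3 within 50 bp and 16 within 200 bp, against 10 within 100 bp, and 7 and 9 in windows centred 1000 bp to the left and right. The Notch3 summits fell to 2 without replicate 2 and to 1 without replicate 1, against 6. The cause of these shifts was not tested. Depth is unknown, 1 biosample label covers both libraries, and a nearest start does not show which gene a summit acts on. No paired analysis was possible because there is 1 group and no contrast.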
